A study of Mus musculus with 12 samples.

Results

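The cadherins Cdh1, Cdh2 and Cdh3, the catenins Ctnna1, Ctnnb1, Ctnnd1 and Jup, and the desmosome genes Dsp, Dsg2 and Pkp2 were followed in mouse testis cell lines. They were taken by gene symbol for their function, with earlier results of these data known. All 10 were found among the 17995 genes with values. The samples were 12 RNA-seq libraries from C18-4 cells, a spermatogonial stem cell line, and TM4 cells, a Sertoli cell line. In each line 3 libraries came from cells given shRNA against the muscarinic receptor M5 (shM5) and 3 from cells given the control shRNA (shNC). The labels give both lines the strain IRC, the tissue "C18-4 cells" or "TM4 cells", and the treatments CM5, C3NC, TMM5 and TM3NC. According to the methods, a mixture of shRNAs to the same target was transfected, and stably transfected cells were kept in the medium of the parent line. No source says whether libraries of 1 group came from separate cultures, so the p-values below measure only the spread between these libraries.

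Classical cadherins are calcium-dependent adhesion receptors that bind their like on the neighbouring cell. Their cytoplasmic tails hold p120 catenin (Ctnnd1) and either β-catenin (Ctnnb1) or its close relative plakoglobin (Jup), and α-catenin (Ctnna1) ties that complex to actin. Desmosomes use desmogleins and desmocollins outside the cell and plakoglobin, plakophilins and desmoplakin inside it, with intermediate filaments in place of actin. In the seminiferous epithelium, N-cadherin (Cdh2) junctions and desmosome-like contacts join Sertoli cells to each other and to germ cells. β-catenin also acts in the nucleus as the effector of Wnt signalling. The study stained E-cadherin and a catenin, by its antibody the product of Ctnnd1, among its junction proteins. It reported both proteins lower with shM5 in both lines. The libraries measure the transcripts, not the proteins.

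Values are RPKM, reads scaled for gene length and library size, which puts genes and libraries on a common scale. Comparisons between the lines still depend on the scaling, as the quantile normalisation below shows. The value of 1 read was 0.984 to 1.02 times the typical one in every library, so depth was much alike, but read numbers are not given and counting error is unknown. Chrm5, the gene of M5, was listed at 0.01 RPKM in 1 shNC library of each line and at 0 in the other 10, so its transcript could not serve to check the labels. The line labels had limited support from markers. In the C18-4 libraries Ddx4, Dazl, Ret and Zbtb16 stayed at or below 0.05 RPKM and only 3 of 9 spermatogonial markers with values averaged 1 RPKM or more, led by Uchl1 at 76.8 to 140 RPKM. The Sertoli marker Wt1 had a mean of 63.7 RPKM in C18-4 libraries and 0.0983 RPKM in TM4 libraries, and Sox9 had a mean of 0.005 and 1.30 RPKM. TM4 shNC replicate 3 lay at a root mean square log2 difference of 0.640 and 0.642 from the other 2 shNC libraries and of 0.202 to 0.257 from the shM5 libraries. Replicate 3 of C18-4 lay apart in both groups, at 0.418 and 0.438 in shNC and 0.376 and 0.388 in shM5.

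E-cadherin transcript was close to absent from both lines, and N-cadherin led Cdh1, Cdh2 and Cdh3 in each. Cdh1, the gene of E-cadherin, ranged from 0 to 0.07 RPKM in C18-4 and from 0 to 0.05 RPKM in TM4, and each line had 1 library at 0. Cdh2 measured 108, 108 and 123 RPKM in the C18-4 shNC libraries and 113, 113 and 114 RPKM in the C18-4 shM5 libraries. In TM4 it measured 48.2, 46.8 and 50.5 RPKM with shNC and 49.3, 50.7 and 50.5 RPKM with shM5. Every C18-4 library was thus above every TM4 library, and within each line the treatments overlapped.

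P-cadherin was abundant in C18-4 and low in TM4. Cdh3 measured 57.3, 61.8 and 64.3 RPKM in C18-4 shNC and 63.3, 64.5 and 61.0 RPKM in C18-4 shM5. In TM4 the values were 0.36, 0.34 and 0.13 RPKM with shNC and 0.44, 0.19 and 0.25 RPKM with shM5, so all TM4 libraries were below 1 RPKM. The mean was 218 times higher in C18-4 (62.0 ± 2.69 against 0.285 ± 0.116 RPKM, SD, n = 6 libraries each). Cdh3 and Cdh1 are neighbours in the GENCODE M21 annotation of GRCm38, which serves here to place genes only, since the build of the files is not given in the sources used here. Cdh3 lies at chr8:106510891-106557297 and Cdh1 at chr8:106603351-106670246, both on the plus strand, with 46053 bases between them. In C18-4 Cdh3 ranked 1528 of 17995 genes by mean RPKM and its neighbour Cdh1 ranked 13912.

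**Figure D1:**
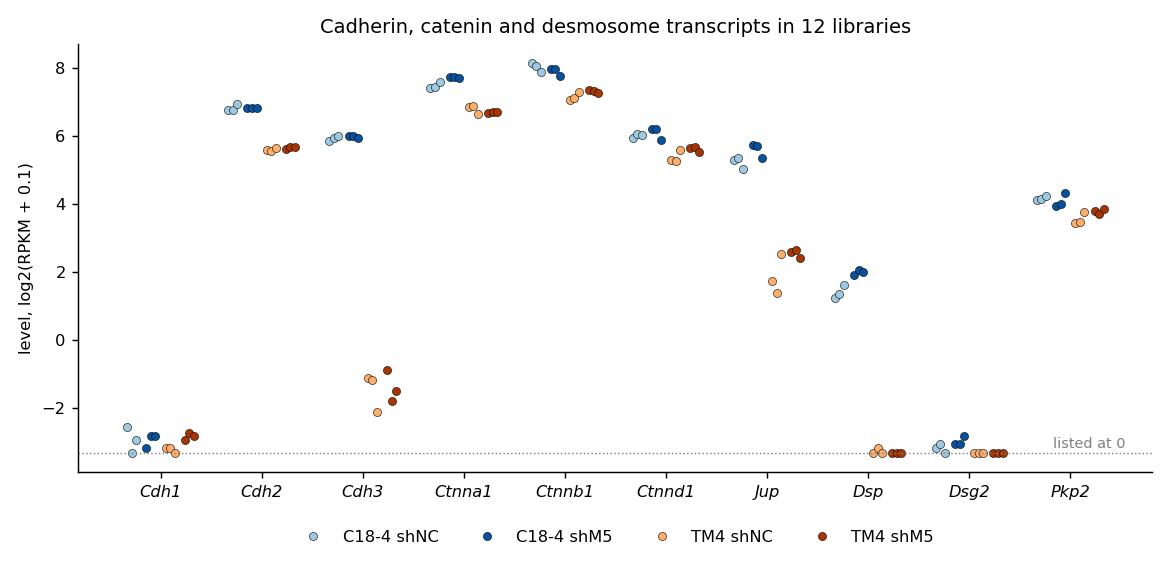
Level of each gene in each of the 12 libraries, as log2(RPKM + 0.1) on the vertical axis, with points coloured by line and treatment and a dotted line where a value of 0 falls. Cdh3, Jup and Dsp stand far apart between C18-4 (blue) and TM4 (orange), Cdh1 and Dsg2 lie near the dotted line in both, and within a line shNC and shM5 points mostly overlap.

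As a share of the summed RPKM of Cdh1, Cdh2 and Cdh3, Cdh3 made up 35.4% ± 0.863 in C18-4 and 0.578% ± 0.242 in TM4 (SD, n = 6). Cdh2 made up 64.6% ± 0.855 and 99.4% ± 0.244. Cdh1 held 0.0182% ± 0.0149 in C18-4 and 0.0465% ± 0.0384 in TM4. The shares scarcely moved with treatment, with Cdh3 at 35.1% ± 1.02 in C18-4 shNC and 35.7% ± 0.746 in C18-4 shM5 (n = 3 each). The summed RPKM of the catenins was 3.17 ± 0.219 times that of Cdh1, Cdh2, Cdh3 and Dsg2 in C18-4 and 6.21 ± 0.157 times in TM4. That order of the lines turned once the other cadherins described below were added to the sum, an alternative chosen after seeing the data, which gave 2.95 ± 0.228 in C18-4 and 1.87 ± 0.198 in TM4. Cdh11 alone held 66.3% ± 3.65 of that larger sum in TM4 and 1.99% ± 0.258 in C18-4. These shares are descriptions and were not tested.

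**Figure D2:**
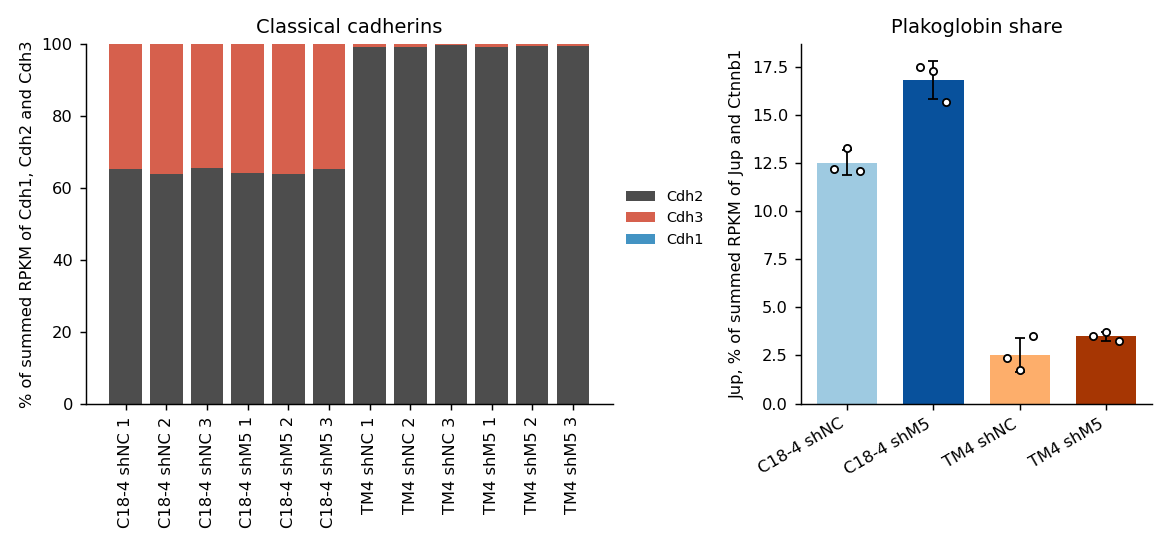
Left, the percentage of the summed RPKM of Cdh1, Cdh2 and Cdh3 held by each, 1 bar per library. Right, Jup as a percentage of the summed RPKM of Jup and Ctnnb1, with bars at the mean of 3 libraries, error bars of 1 SD and points for libraries. Cdh3 holds 34.4% to 36.3% in C18-4 and under 1% in TM4, and Cdh1 is too small to see. The Jup share, not planned and not tested, is 12.1% to 13.3% in C18-4 shNC and 15.7% to 17.5% in C18-4 shM5.

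The catenin transcripts were abundant in both lines and higher in C18-4. Ctnnb1 had the highest level of the 10 genes, with a mean of 251 ± 22.2 RPKM in C18-4 and 150 ± 11.6 RPKM in TM4 (rank 295 and 549 of 17995). Ctnna1 followed at 194 ± 19.5 and 108 ± 6.91 RPKM, and Ctnnd1 at 66.6 ± 5.96 and 45.5 ± 5.30 RPKM. These differences were 1.67-fold, 1.81-fold and 1.46-fold, and for each gene no TM4 library reached the lowest C18-4 library. In C18-4 the order of the levels ran Ctnnb1, Ctnna1, Cdh2, Ctnnd1, Cdh3, Jup, Pkp2 and Dsp, and in TM4 it ran Ctnnb1, Ctnna1, Cdh2, Ctnnd1, Pkp2, Jup and Cdh3. In C18-4 the ranges of Ctnnd1 (59.2 to 73.6 RPKM) and Cdh3 (57.3 to 64.5 RPKM) overlapped, so those neighbours did not differ beyond their spread. In TM4 the means of Cdh2 and Ctnnd1 were 49.3 and 45.5 RPKM, again with overlapping ranges.

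Plakoglobin, which can take the place of β-catenin on a cadherin tail and is shared with the desmosome, was the catenin with the widest gap. Jup had a mean of 43.2 ± 8.16 RPKM in C18-4 and 4.76 ± 1.52 RPKM in TM4, a 9.07-fold difference. It made up 14.7% ± 2.47 of the summed RPKM of Jup and Ctnnb1 in C18-4 and 3.02% ± 0.774 in TM4, a share that was not planned and not tested.

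The desmosome transcripts were uneven. Desmoplakin, which links the plaque to keratin or vimentin filaments, measured 2.25, 2.44 and 2.99 RPKM in C18-4 shNC and 3.63, 4.04 and 3.89 RPKM in C18-4 shM5. In TM4, Dsp was listed at 0 in 5 of 6 libraries and at 0.01 RPKM in the other. Plakophilin 2 was present in both lines, with Pkp2 at 17.4 ± 1.70 RPKM in C18-4 and 12.7 ± 1.46 RPKM in TM4. Desmoglein 2, the adhesion receptor of the desmosome that is most widespread in tissues, was at 0 to 0.04 RPKM in C18-4 and at 0 in all 6 TM4 libraries. Its relatives Dsg1a, Dsg3, Dsg4, Dsc1, Dsc2 and Dsc3 all had means under 0.1 RPKM in both lines. C18-4 libraries thus held transcripts of plaque proteins (Jup, Dsp, Pkp2) with next to none of the desmosomal cadherins.

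The windows upstream of Jup and Dsp are shown because these plaque genes had wide gaps between the lines, a set chosen after the levels were known. A RefSeq table on GRCm38.p6 held windows for 4 of the 10 genes that are printed or searched here, namely Ctnnb1, Ctnnd1, Jup and Dsp, 6 windows in all. Each holds the 250 bases before an annotated transcript start, read 5′ to 3′ on the strand of the gene. Capitals mark GC boxes, the letters GGGCGG or CCGCCC, which cover both strands. The Jup window is chr11:100397791-100398040 on the minus strand and the Dsp window is chr13:38151044-38151293 on the plus strand.
Jup: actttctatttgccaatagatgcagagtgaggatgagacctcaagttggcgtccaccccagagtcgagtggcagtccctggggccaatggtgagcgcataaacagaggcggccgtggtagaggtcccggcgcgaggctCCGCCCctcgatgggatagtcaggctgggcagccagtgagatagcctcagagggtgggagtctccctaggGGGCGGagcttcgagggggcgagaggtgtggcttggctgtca
Dsp: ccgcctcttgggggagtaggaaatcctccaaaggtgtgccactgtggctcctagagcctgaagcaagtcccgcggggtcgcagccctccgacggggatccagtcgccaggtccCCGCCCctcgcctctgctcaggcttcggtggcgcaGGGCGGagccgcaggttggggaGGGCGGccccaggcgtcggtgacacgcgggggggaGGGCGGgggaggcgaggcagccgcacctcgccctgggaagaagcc
The Jup window held 2 GC boxes, which start 112 and 42 bases before the transcript start, and the Dsp window held 4. Of all 32851 windows of this length, 32.7% held at least 1. GC content was 62% for Jup and 72.4% for Dsp, against a median of 52.4% over all windows, and CG dinucleotides numbered 13 and 22 against a median of 6. Genes with narrower gaps had such windows too. The 2 Ctnnb1 windows held 3 and 2 GC boxes, with a GC content of 74.8% and 74.4%, and the 2 Ctnnd1 windows held 0, with 66.8% and 40%. CAGGTG or its reverse CACCTG, the E-box bound by the Snail and Zeb repressors named below, was in none of the 6 windows and in 17.2% of all windows.

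The line difference was tested over all 12 libraries with limma on log2(RPKM + 0.1), as C18-4 minus TM4 averaged over the treatments. Cdh1 and Dsg2 were too low to be tested (mean under 0.5 RPKM), and 8 of 8 genes tested were higher in C18-4 at an adjusted p under 0.05. Cdh3 and Dsp reached the filter only through C18-4, where they are high, which leaves 6 of 6 for the genes that reached it in both lines. That share has to be read against a background in which 73% of 11773 genes were called. The study set a stricter threshold, which asks for an adjusted p no higher than 0.001 together with a log2 ratio of 1 or more in either direction. Past that threshold Cdh2, Cdh3, Jup and Dsp remained, 4 of 8, against 26.3% of all genes. Cdh3 and Dsp were again tested only through C18-4, so of the 6 genes at the filter in both lines only Cdh2 and Jup remained. The libraries of the lines did not overlap for 8 of the 10 genes, Cdh1 and Dsg2 being the exceptions, and for 52.8% of genes tested.

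The fitted log2 difference was 7.39 ± 0.188 (SE) for Cdh3, with an adjusted p of 8e-12. It was 3.21 ± 0.167 for Jup (adjusted p = 6.27e-09), 1.20 ± 0.0469 for Cdh2 (adjusted p = 4.14e-10) and 0.85 ± 0.0511 for Ctnna1 (adjusted p = 2.38e-08). Ctnnb1, Ctnnd1 and Pkp2 differed by 0.74, 0.55 and 0.46 on the same scale. For Dsp the fitted 4.99 depends on the pseudocount, since TM4 was listed at 0 in all but 1 library, and it ran from 2.05 to 8.13 over the alternatives. The median log2 difference of the 8 genes was 1.02, beside 0.14 over all genes tested. That 1.02 includes Cdh3 and Dsp, which reached the filter only through C18-4. Of the others, Jup and Cdh2 lay above it and Ctnna1, Ctnnb1, Ctnnd1 and Pkp2 below it. Quantile normalisation moved the median over all genes to -0.02, and the share of calls that were higher in C18-4 went from 60.1% to 48.7%. The 8 calls and the median of 1.02 or 1.03 for the 8 genes stayed. Each line is a single cell line, so the difference cannot be told apart from any other difference between C18-4 and TM4.

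Other genes of the junction were read from lists written by function, again with earlier results of these data known. The lists held 95 genes in all, of which 90 had values and 58 could be tested between the lines. Of these, 30 were higher in C18-4, 20 were lower and 8 did not pass. The calls were 86.2% of the 58, beside 73% of all genes, and 79.3% beside 73.5% with quantile normalisation. The counts by list below have to be read against that background. Of the 58, 7 reached the filter only through C18-4 and 1 only through TM4, and of the 50 that reached it in both lines 23 were higher and 19 lower. Among the other cadherins, most were silent. In C18-4 14 of 17 and in TM4 11 of 17 had a mean under 0.1 RPKM. Cdh11, OB-cadherin of mesenchymal cells, was the leading cadherin of TM4, with 110 ± 14.5 RPKM there against 3.76 ± 0.544 RPKM in C18-4 (log2 difference -4.84, adjusted p = 4.33e-13). Cdh13, which lacks a cytoplasmic tail, was also lower in C18-4 (log2 difference -3.59), with a mean of 1.16 RPKM in TM4. Cdh10 had a mean of 4.79 ± 1.71 RPKM in C18-4 and was listed at 0 in all TM4 libraries. Cdh24 had 4.77 and 3.91 RPKM, and its call (log2 difference 0.29, adjusted p = 0.00997) was lost with quantile normalisation (-0.04, adjusted p = 0.673).

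The other desmosome genes were low in at least 1 line. The 3 that could be tested, Evpl, Perp and Pkp1, reached the filter only through C18-4, so that they were called higher there says nothing on a shared direction. Evpl, the plaque protein envoplakin, had a mean of 5.09 ± 0.896 RPKM against 0.0183 ± 0.0133 RPKM. Perp, a membrane protein of desmosomes, had 5.02 ± 1.42 RPKM in C18-4 and was listed at 0 in TM4, and Pkp1 had 1.69 ± 0.563 RPKM against 0.00833 ± 0.0117 RPKM. Pkp3, another plakophilin, was too low to be tested and ran the other way, at 0.07 to 0.21 RPKM in C18-4 and 0.45 to 0.97 RPKM in TM4. Of 9 other adherens plaque genes tested, 4 were higher in C18-4 and 2 lower, and 4 and 3 with quantile normalisation. Plekha7 reached the filter only through C18-4. Arvcf, a relative of p120 catenin, had 11.9 ± 0.962 RPKM against 1.86 ± 0.327 RPKM (log2 difference 2.63, adjusted p = 1.48e-09). Plekha7, which anchors microtubules at adherens junctions through p120 catenin, had 2.49 ± 0.513 RPKM against 0.015 ± 0.0198 RPKM, and the actin-binding Lima1 had 93.0 ± 4.51 RPKM against 46.2 ± 10.7 RPKM. Vinculin, which binds α-catenin under tension, did not pass (Vcl, 70.2 against 60.9 RPKM, adjusted p = 0.137).

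The transcription factors known to repress E-cadherin went the other way. All 6 were lower in C18-4 than in TM4, under both scaling alternatives as well, with a median log2 difference of -1.90. Snai2 had a mean of 4.02 ± 0.431 RPKM in C18-4 and 74.2 ± 39.0 RPKM in TM4. Twist2 had 7.46 ± 0.829 against 97.6 ± 26.3 RPKM, and Zeb2 had 7.08 ± 0.407 against 31.6 ± 10.5 RPKM. All 6 had a mean of at least 1 RPKM in each line. Cdh1 was near 0 in both lines, and its relation to these genes was not tested. Epithelial markers differed alongside, with a summed level of 266 to 476 RPKM over the C18-4 libraries and 0.15 to 0.7 RPKM over the TM4 libraries. In C18-4 it was carried by Krt19 and Krt18, with Krt5 at 0 in all libraries and Epcam at 1.15 to 2.32 RPKM. Of the 6 mesenchymal markers, 5 had the higher mean in TM4 and Col1a1 in C18-4 (332 against 212 RPKM). Fn1 had a mean of 8.70 RPKM in C18-4 and 506 RPKM in TM4, Col1a2 0.157 and 425 RPKM, Vim 684 and 917 RPKM, Col3a1 90.3 and 115 RPKM, and Pdgfrb 1.30 and 3.27 RPKM. The part of these differences in the junction transcripts was not tested.

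**Figure D3:**
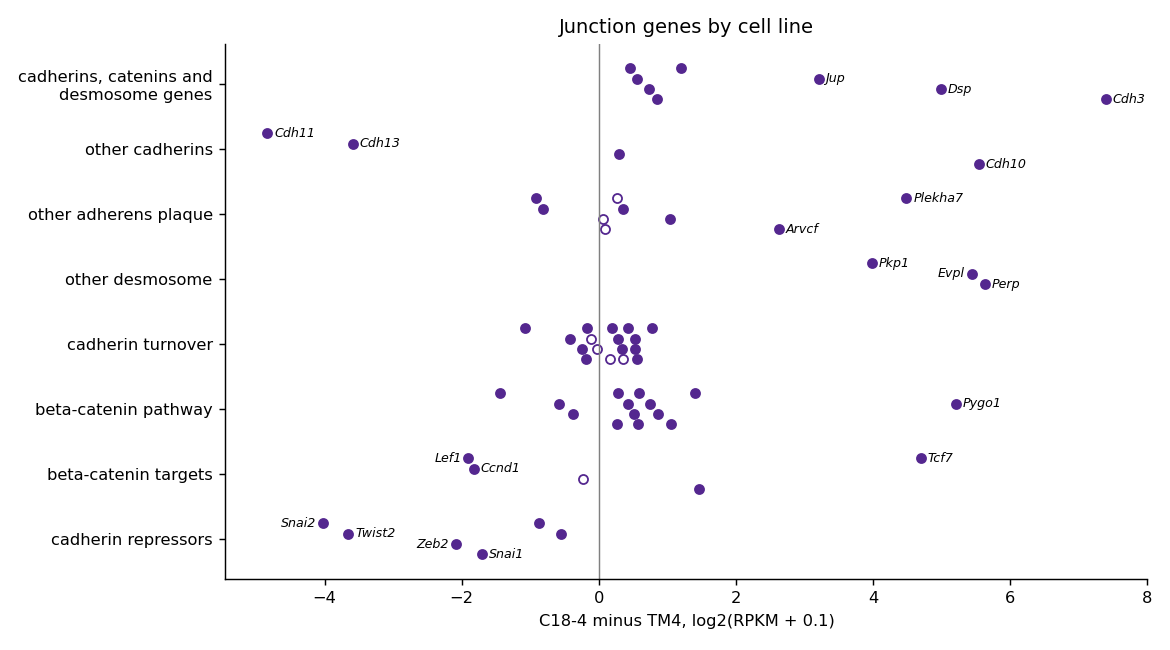
Difference between the lines, C18-4 minus TM4 in log2(RPKM + 0.1), for each gene tested in each list, with filled points for an adjusted p under 0.05 and open points otherwise. Genes with an absolute difference over 1.5 are named. All 8 cadherin, catenin and desmosome genes and the 3 other desmosome genes lie to the right of 0, the latter with Cdh3 and Dsp through a filter that only their C18-4 level passed, and the 6 cadherin repressors lie to the left.

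Of 14 genes of the β-catenin pathway tested, 11 were higher in C18-4 and 3 lower, with 10 and 3 under either scaling alternative. Pygo1, a nuclear co-activator, had a mean of 3.77 ± 1.18 RPKM and was listed at 0 in TM4. Ctnnbip1, which keeps β-catenin from its DNA-binding partners, had 20.5 ± 1.59 against 8.05 ± 2.60 RPKM. The other co-activator Bcl9 was lower in C18-4, at 4.81 ± 0.499 against 13.3 ± 1.77 RPKM. The kinase Csnk1a1 (164 against 136 RPKM) and the ubiquitin ligase subunit Fbxw11 (41.0 against 27.5 RPKM), which mark β-catenin for destruction, differed less. Pygo1 reached the filter only through C18-4, as did Tcf7 below. The transcripts that β-catenin is known to raise gave no common direction, with 2 of 5 tested higher and 2 lower, and with 1 and 3 under quantile normalisation. Tcf7 had 12.1 ± 3.08 RPKM in C18-4 and 0.395 ± 0.189 RPKM in TM4, Lef1 1.36 ± 0.357 and 5.25 ± 0.695 RPKM, and Ccnd1 29.0 ± 5.16 and 106 ± 29.4 RPKM.

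Of 17 tested genes that cleave, phosphorylate or move cadherins, 8 were higher in C18-4, 5 were lower and 4 did not pass. Quantile normalisation left 6 higher and 4 lower. The sheddase Adam10, which cuts E- and N-cadherin, had 50.5 ± 8.38 against 33.9 ± 3.0 RPKM, and the phosphatase Ptprf 38.8 ± 5.14 against 22.5 ± 0.488 RPKM. The kinase Fer was lower in C18-4, at 21.6 ± 2.05 against 45.5 ± 2.76 RPKM. Of the GTPases that steer junctional actin, Rac1 was higher in C18-4 (394 against 275 RPKM, adjusted p = 5.72e-06) and Rhoa did not pass (269 against 274 RPKM, adjusted p = 0.693).

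In C18-4 cells, shM5 and shNC were compared in the 6 libraries of that line. None of the 8 genes tested passed at an adjusted p under 0.05 (limma), beside 0.586% of 11611 genes, and 0% passed the stricter threshold. The study applied that threshold with another test, DEGseq, and reported genes increased and decreased by shM5 in both lines. At an unadjusted p under 0.05 in limma there were 3 of the 8 genes, Ctnna1, Jup and Dsp, beside 1425 genes in all (12.3%). All 3 were higher with shM5. The groups did not overlap for 2 of the 8, Ctnna1 and Dsp, beside 18.9% of genes tested.

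Ctnna1 measured 169, 173 and 191 RPKM with shNC and 212, 211 and 210 RPKM with shM5. The shM5 libraries were all above the shNC libraries and much closer to each other, and the fitted log2 difference was 0.25 ± 0.069 (SE, adjusted p = 0.214). Dsp, with the values given above, had a log2 difference of 0.58 ± 0.144 (adjusted p = 0.166), or 1.51-fold by the means. Jup measured 38.8, 41.1 and 32.5 RPKM with shNC and 53.3, 52.5 and 40.8 RPKM with shM5. Only replicate 3 of shM5 fell below an shNC library, and the log2 difference was 0.38 ± 0.135 (adjusted p = 0.318).

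Libraries with the same number deviated together in C18-4 (correlations of 0.439, 0.409 and 0.631). Libraries 1 and 2 of different numbers did so too, at 0.341 and 0.345, and the pairing was inferred from these same values. With the replicate number as a block, Ctnna1, Dsp and Jup passed. The adjusted p was then 0.0196 for Ctnna1, 0.0185 for Dsp and 0.00557 for Jup, while 1386 of 11611 genes passed in all (11.9%). The ratio of shM5 to shNC within a number was 1.25, 1.22 and 1.10 for Ctnna1, 1.61, 1.66 and 1.30 for Dsp and 1.37, 1.28 and 1.25 for Jup. Over the 15 alternatives the adjusted p ran from 0.000566 to 0.688 for Ctnna1, from 0.00341 to 0.613 for Dsp and from 0.000325 to 0.818 for Jup. Without replicate 3 of both groups, 5 genes passed, these 3 and Ctnnd1 higher (log2 difference 0.19, adjusted p = 0.0168) and Ctnnb1 lower (-0.13, adjusted p = 0.0447), among 3029 genes in all (26.2%).

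The summed level of the epithelial markers differed by treatment in the same libraries, carried by Krt19 and Krt18. Over 11 of 12 markers with values it was 266 to 326 RPKM in C18-4 shNC and 423 to 476 RPKM in C18-4 shM5. No other marker of that list exceeded 3.26 RPKM in a C18-4 library. Krt18 measured 71.85, 68.27 and 81.39 RPKM with shNC and 88.52, 87.96 and 100.8 RPKM with shM5. Krt19 measured 198, 190 and 236 RPKM with shNC and 379, 368 and 313 RPKM with shM5. The peritubular myoid sum also differed, at 61.9 to 77.9 RPKM in shNC and 113 to 158 RPKM in shM5. It was mostly Acta2 and Tagln, while Cnn1 of that list stayed at 3.22 to 3.66 RPKM in all C18-4 libraries. The Sertoli sum was 67.7 to 73.8 RPKM in shNC and 76.6 to 84.5 RPKM in shM5. The mesenchymal sum overlapped, at 1003 to 1158 and 991 to 1197 RPKM. The spermatogonial sum, which is mostly Uchl1, was 80.8 to 124 and 126 to 145 RPKM. The part of any of these in the values of Jup, Dsp and Ctnna1 was not tested, and in bulk libraries a change in the cells cannot be told apart from a change in RNA per cell.

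β-Catenin transcript leaned lower with shM5 and was not called. Ctnnb1 measured 281, 268 and 235 RPKM with shNC and 252, 251 and 219 RPKM with shM5, with overlapping groups, a log2 difference of -0.12 ± 0.0943 and a 95% interval of -0.34 to 0.10 (adjusted p = 0.710). Within a number the ratio of shM5 to shNC was 0.897, 0.936 and 0.929, lower in all 3 pairs, and the block gave an interval of -0.21 to -0.02 (adjusted p = 0.0958). Jup made up 12.5% ± 0.66 of the pair in shNC and 16.8% ± 0.97 in shM5 (n = 3 each), and those ranges did not overlap. That share was not among those planned and was not tested, and 18.9% of single genes tested had groups that did not overlap. The cadherins showed no difference beyond their spread. The log2 difference was 0.01 for Cdh2 (95% interval -0.16 to 0.18) and 0.04 for Cdh3 (-0.12 to 0.21). For Ctnnd1 it was 0.08 (-0.15 to 0.32) and for Pkp2 -0.07 (-0.34 to 0.20). Cdh1 was at 0.07, 0 and 0.03 RPKM with shNC and 0.01, 0.04 and 0.04 RPKM with shM5, too low for a comparison at this depth.

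**Figure D4:**
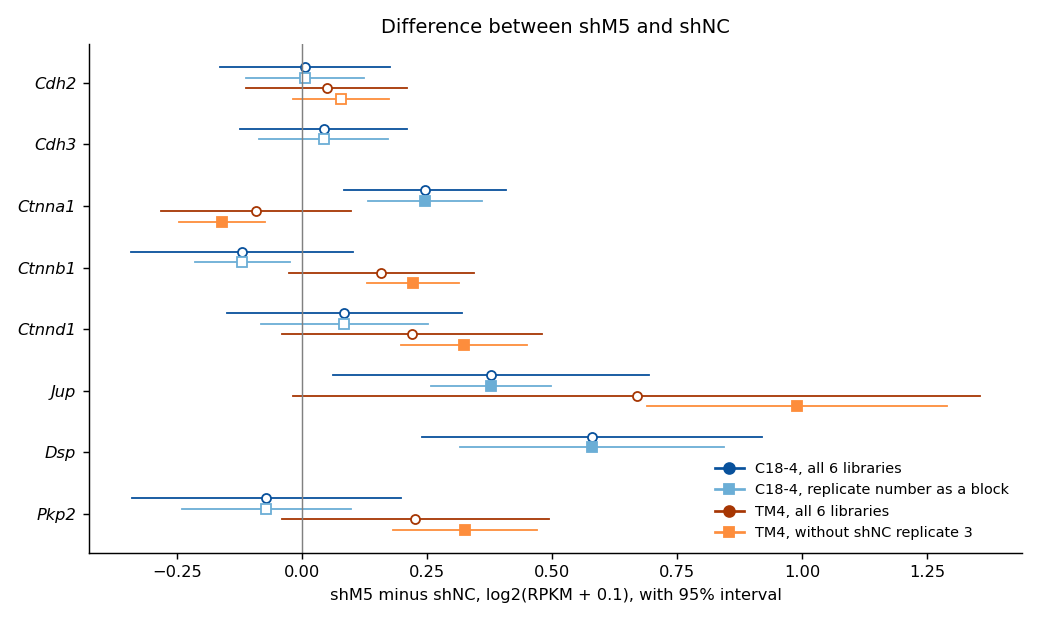
shM5 minus shNC for each gene tested, in log2(RPKM + 0.1) with its unadjusted 95% interval. Circles use all 6 libraries of a line, blue squares add the replicate number as a block in C18-4, orange squares leave out TM4 shNC replicate 3, and filled symbols have an adjusted p under 0.05. With all libraries every symbol is open, and Ctnna1, Jup and Dsp in C18-4 lie above 0 with intervals that do not reach it.

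**Figure D5:**
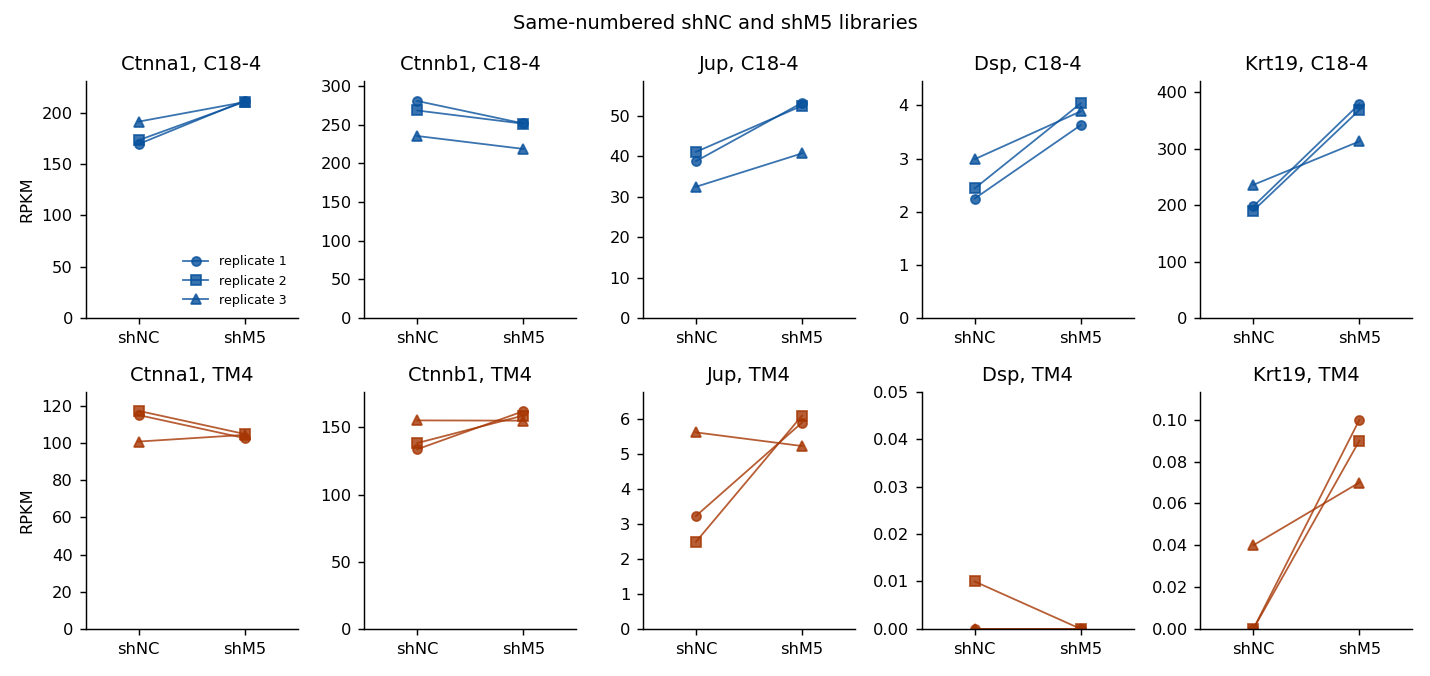
RPKM of Ctnna1, Ctnnb1, Jup, Dsp and the keratin gene Krt19 in shNC and shM5 libraries, with a line joining libraries of the same number, C18-4 above and TM4 below. In C18-4 all 3 lines climb for Ctnna1, Jup, Dsp and Krt19, and in TM4 replicate 3 of shNC lies among the shM5 values for Jup and Ctnnb1. The TM4 panels of Dsp and Krt19 hold values of at most 0.1 RPKM.

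In TM4 cells, 6 genes could be tested and none passed (limma, adjusted p under 0.05), beside 0% of 11016 genes, with 0% past the stricter threshold too. At an unadjusted p under 0.05 there were 0 of the 6, beside 2866 genes in all (26.0%). The values split by library more than by treatment. Jup measured 3.23, 2.49 and 5.62 RPKM with shNC and 5.90, 6.10 and 5.23 RPKM with shM5, so shNC replicate 3 lay inside the shM5 range and the other shNC libraries below it. The log2 difference was 0.67 ± 0.285 (adjusted p = 0.192). Ctnnb1 measured 134, 138 and 155 RPKM with shNC and 162, 159 and 155 RPKM with shM5, and again shNC replicate 3 reached the shM5 values (log2 difference 0.16 ± 0.0768, adjusted p = 0.206). Ctnnd1 followed the same course with 39.5, 38.6 and 48.4 RPKM and then 49.5, 51.2 and 46.1 RPKM, and Pkp2 with 10.8, 10.9 and 13.4 RPKM and then 13.7, 13.0 and 14.2 RPKM.

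Ctnna1 leaned the opposite way, with 115, 117 and 101 RPKM in shNC and 103, 105 and 104 RPKM in shM5 (log2 difference -0.09, adjusted p = 0.408). Cdh2, with the values given above, differed by 0.05 (95% interval -0.11 to 0.21, adjusted p = 0.598). Without shNC replicate 3, with 2 libraries left in that group, 5 of the 6 genes passed, among 7433 of 11026 genes in all (67.4%). Jup was then higher with shM5 (log2 difference 0.99, adjusted p = 0.000316), as were Ctnnd1 (0.32, 0.00115), Pkp2 (0.33, 0.00226) and Ctnnb1 (0.22, 0.00159), and Ctnna1 was lower (-0.16, 0.00567). Over the 15 alternatives the adjusted p of Jup ran from 8.03e-05 to 0.507, that of Ctnnb1 from 0.000265 to 0.529 and that of Ctnna1 from 0.00225 to 0.767. Groups did not overlap for Cdh1 alone, at 0 to 0.01 RPKM with shNC and 0.03 to 0.05 RPKM with shM5, beside 26.8% of genes tested. Those values are too close to 0 for a comparison. The peritubular myoid sum was 122 to 250 RPKM in TM4 shNC and 231 to 350 RPKM in TM4 shM5, the Sertoli sum 39.7 to 78.2 and 32.9 to 37.8 RPKM over 10 of 12 markers, and the mesenchymal sum 1732 to 2317 and 2344 to 2478 RPKM over 6 of 6, without overlap. Their part in these values was not tested.

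Whether the effect of shM5 differed between the lines was tested as the difference of the C18-4 and TM4 differences. None of the 8 genes tested passed (limma), beside 0.102% of 11773 genes and 0% at the stricter threshold, and 3 had an unadjusted p under 0.05, beside 2463 genes in all (20.9%). These were Ctnna1 (C18-4 minus TM4 0.34, adjusted p = 0.181), Ctnnb1 (-0.28, adjusted p = 0.236) and Dsp (0.63, adjusted p = 0.193). Dsp and Cdh3 reached the filter only through C18-4, here and in the counts below. With Dsp near 0 in TM4, its value reflects C18-4 and the pseudocount and cannot compare the lines. It was 0.457 with a pseudocount of 1 and 0.93 with 0.01. The fitted differences were therefore positive for α-catenin and negative for β-catenin. For Jup the difference was -0.29 (95% interval -1.03 to 0.44). Without TM4 shNC replicate 3 the adjusted p was 0.0026 for Ctnna1, 0.0363 for Ctnnb1 and 0.0377 for both Jup and Dsp, and these 4 of 8 genes passed, among 4477 of 11793 genes in all (38.0%). Over the 21 alternatives it ran from 2.41e-05 to 0.430 for Ctnna1, from 0.000216 to 0.494 for Ctnnb1, from 0.00403 to 0.960 for Jup and from 0.0147 to 0.445 for Dsp.

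The other junction lists gave no call with shM5 in either line. In C18-4 0 of 57 and in TM4 0 of 52 genes tested passed (limma), with 11 (19.3%) and 21 (40.4%) at an unadjusted p under 0.05, beside 12.3% and 26.0% of all genes. The difference between the lines gave 0 of 58, with 23 (39.7%) at an unadjusted p under 0.05, beside 20.9% of all genes. With the block in C18-4, 12 of 57 passed (21.1%), beside 11.9% of all genes, 5 higher with shM5 and 7 lower. The higher ones were Afdn, the plaque protein afadin (log2 difference 0.25, adjusted p = 0.0336), Ncstn (0.32, adjusted p = 0.0156), Ptprk (0.27, adjusted p = 0.0326), Iqgap1 (0.21, adjusted p = 0.0281) and Rac1 (0.15, adjusted p = 0.0454). The lower ones included the desmosome genes Perp (log2 difference -0.53, adjusted p = 0.0172) and Pkp1 (-0.84, adjusted p = 0.011), so these did not share the direction of Dsp and Jup. They also included Snai1 (-0.47, adjusted p = 0.012) and Zeb1 (-0.46, adjusted p = 0.00984) of the repressors, Adam10 (-0.42, adjusted p = 0.00762) and the nuclear factors Pygo1 (-0.64, adjusted p = 0.0128) and Tcf7 (-0.52, adjusted p = 0.0039). Without TM4 shNC replicate 3, 21 of 52 were higher and 14 lower in TM4 (67.3% in all, beside 67.4% of all genes), Vcl (1.04, adjusted p = 1.4e-06) and Snai2 (-1.33, adjusted p = 1.71e-05) among them.

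The genes most like each transcript over the 12 libraries were named by Pearson's r of log2(RPKM + 0.1), as a description dominated by the gap between the lines that all points share. For Cdh3 they were Esrp2, a splicing factor of epithelial cells, Gm7972 and Prnp (r of 0.998 to 0.999). For Jup they were Ugp2, Dcakd and Llgl2 (r of 0.996 to 0.997), of which Llgl2 is a cell polarity gene with a mean of 13.9 RPKM in C18-4 and 0.95 RPKM in TM4. For Dsp they were Tmem51, Akap12 and Peg3, for Cdh2 H60c, Arnt2 and Cacna1g, and for Pkp2 Vrk2, Phka2 and Ctc1. For Ctnna1 they were Sema3e, Derl2 and Jag1, for Ctnnb1 Mum1l1, Gstp1 and Rps14, and for Ctnnd1 Purb, Vasn and Creb3l2. No gene of the cadherins, catenins and desmosome genes was among the 3 most like another.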

How the data were processed

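The 12 libraries, 3 for each line and treatment, were assigned by their descriptions. Per the methods, the authors sequenced oligo(dT)-selected mRNA on an Illumina HiSeq, aligned reads to reference genes with SOAPaligner and turned the reads of each gene into RPKM. The deposited RPKM values have 2 decimals and cover 17995 genes. The genome build is not given in the sources used here. Read totals are unknown here, so no interval for counting error is given.

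log2(RPKM + 0.1) was fitted with limma 3.58.1 (R 4.3.3, eBayes with a mean-variance trend) for genes whose mean reached 0.5 RPKM, 11611 in C18-4, 11016 in TM4 and 11773 over all 12 libraries. Adjusted p-values are those of Benjamini and Hochberg over all genes tested. Fold changes are on the log2(RPKM + 0.1) scale and understate changes of low genes. The threshold of the authors, who used DEGseq (FDR up to 0.001, log2 ratio of 1 or more either way), served as the stricter one. The fit was tested on simulated data.

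Same-numbered C18-4 libraries had correlations of their deviations from the group means, across genes, of 0.439, 0.409 and 0.631, so the numbers were taken to pair them. Libraries 1 and 2 of different numbers also correlated, at 0.341 and 0.345, and replicate 3 went against both. In TM4 these were 0.0729, 0.0489 and 0.127. Alternatives were other pseudocounts, filters, scalings and variance models, the block, and libraries left out.

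Members and lists were chosen with earlier results of these data known. The text names all members. From each list it names the 3 largest called differences in a comparison and the 2 highest means. Other genes (Dsg1a, Dsg3, Dsg4, Dsc1 to Dsc3, list genes called under the block or without a library, and markers) were chosen after their values were seen. Positions came from GENCODE M21 and promoters from RefSeq.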

Additional observations from a re-analysis of the deposited data

How the results depend on the processing

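The line difference kept its direction and its calls for all 8 genes tested under all 23 alternatives, though Cdh3 and Dsp were tested only through their C18-4 level. The shares and ratios of cadherins and catenins stayed within 1 SD in 42 recomputations and moved in 2. Of the 42, 36 left out 1 library, which cannot move a mean by 1 SD, so these could not have failed. The 2 that moved were the catenin to cadherin ratios with all listed cadherins in the sum, added after seeing the data, at 2.95 in C18-4 and 1.87 in TM4. The shM5 comparisons depended on single libraries. In C18-4, with 68 genes and 0 members called, the genes called numbered 4 with no filter on low values, 45 with no mean-variance trend, 1386 with the replicate block and 3029 without replicate 3 of both groups. The members called were 3 with the block and 5 without replicate 3. Leaving out 1 library at a time gave 0 to 237 genes and 0 to 1 members, with 237 genes and Ctnna1 called without shNC replicate 3, 31 genes without shM5 replicate 3, and 0 without any of the other 4. In TM4, with 0 called, leaving out replicate 3 of both groups gave 8016 genes and 5 members, 1 of them past the stricter threshold. Leaving out 1 library gave 0 to 7433 genes and 0 to 5 members, and only TM4 shNC replicate 3 gave any. The block in TM4, where the libraries share only a number, called 0 genes, with 2568 at an unadjusted p under 0.05, and TM4 libraries did not correlate best with their own number throughout. For the difference between the lines, with 12 genes called, the count was 27 with a pseudocount of 1, 21 with no filter, 57 with quantile normalisation, 22 with no mean-variance trend, 2 with the block and 7022 without replicate 3, and members went from 0 to 6 in the last. Leaving out 1 library gave 0 to 4477 genes and 0 to 4 members, with 4477 without TM4 shNC replicate 3, 31 without C18-4 shNC replicate 3 and 0 to 4 without any of the others. The block changed no other call of a member. The cause of these shifts was not tested.

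Small differences changed sign, none of them called. In C18-4, Cdh2 went to -0.00086 with quantile normalisation and ran from -0.0268 to 0.0659 with 1 library left out, Cdh3 from -0.00271 to 0.0803 and Pkp2 from -0.189 to 0.000438. For the difference between the lines, Cdh3 went to 0.0233 with a pseudocount of 1, 0.00946 with quantile normalisation and 0.287 without replicate 3. With 1 library left out it ran from -0.23 to 0.287, and Cdh2 from -0.0759 to 0.0168. RPKM near 0 (Cdh1, Dsg2, and Dsp in TM4) cannot be compared at this depth.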
